A study of Mus musculus with 12 samples.

Results

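A set of 102 gene symbols, of 24552 in the deposited count table, had far fewer counts in M1-like than in resting (M0) mouse bone marrow-derived macrophages. The members were chosen on measured values, as counts scaled to a common library total of 1000000 (CPM). A member had a mean of at least 20 CPM over the 6 M0 libraries and a mean over the 6 M1 libraries of no more than 1/8 of that. Of 1819 symbols at that M0 level, 128 (7.04%) met the ratio, and 26 of these were set aside by name (predicted genes, microRNA, Ccr and Tlr genes, Rik clones, opposite-strand transcripts and a short list of named genes). Values are those of the symbols as deposited, for which the strand setting of counting is not given. Whether a value is that of the named gene or of its antisense strand was not tested. Because the M0 and M1 values chose the members, their difference between M0 and M1 is given as a description with no test. Differences between ISRIB and vehicle did not enter the choice and were tested.

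Macrophages kept in M-CSF, the growth factor that supports their survival, hold a resting programme that includes scavenging, lysosomal digestion and iron recycling. Lipopolysaccharide (LPS), a bacterial cell wall component sensed by TLR4, and interferon-γ, a cytokine of T and NK cells, together drive macrophages to an inflammatory state called M1, in which inflammatory genes are induced and parts of the resting programme are reduced. The integrated stress response is a pathway in which phosphorylation of the initiation factor eIF2 lowers protein synthesis while favouring translation of a few factors such as ATF4. ISRIB is a small molecule that binds eIF2B and counters that pathway.

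The labels describe 4 groups of 3 biological replicates of mouse macrophages, M0 and M1 cells each with vehicle or with ISRIB. All were cultured over 6 days with M-CSF at 10 ng/ml, then given DMSO as the vehicle or ISRIB at 50 nM for 1 h, and the M1 cells received LPS (10 ng/ml) together with IFN-γ (25 ng/ml) over 16 h with the same agent present. The labels do not say what M0 cells received in that time, and give no strain, genotype, age or sex, nor whether replicates came from separate animals. The p-values therefore measure only the spread between these samples, which may be technical. Total counts ran from 439976 to 514037 per library, so 1 count was worth 1.95 to 2.27 CPM, and a level of 3 counts, taken as the floor of detection, was 5.84 to 6.82 CPM per library, for counting error only. All 15 macrophage identity genes examined had counts in some library, with a summed level of 611.8 to 1122 CPM in M0 and 347.7 to 713.7 CPM in M1 libraries. Most of the M0 sum was Lyz2, with 146 to 334 counts per M0 library. Several genes that define macrophages were low: Cd68 had 4 to 26 counts in M0 libraries, Tyrobp 2 to 17, Fcer1g 0 to 17 and C1qa 0 to 8, and Mertk, C1qa, Aif1 and Spi1 were too low to test. Summed counts of 15 M1 control genes were 5 to 17 in M0 and 243 to 662 in M1 libraries.

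The 102 members together held 1.89% to 2.23% of the counts of each M0 library (9185 to 10919 counts) and 0.143% to 0.187% of each M1 library (672 to 920 counts). No member was at 0 in any M0 library, while 34 to 47 members were at 0 in each M1 library. Their median mean level was 58.9 CPM in M0 and 2.89 CPM in M1, and the median ratio of M0 to M1 was 15.5. As 1 count is a large step at such levels, folds were also computed with an M1 mean at or under the floor set to the floor, and the median was then 8.45. The data go part of the way with the description "switched off". In 40 members no M1 library was above the floor, and 4 of them (Deptor, Sgsh, Clec9a and Ldlrad4) were at 0 in all 6 M1 libraries. In 14 members all 6 M1 libraries were above the floor, and Focad kept a mean of 557.7 CPM in M1. The ratio was at least 16 in 51 members, at least 32 in 22 and at least 64 in 15. In 94 of the 102 members every M0 library had a higher CPM than every M1 library. The rule favours this pattern, as it chose the members on the same libraries. Of the 2356 genes tested in the series 22.7% showed it, so the difference in share restates the rule. The 8 members with overlapping libraries were Cdc23, Foxo3, Galr2, Tmem181a, Ccdc183, Sec22c, Jmjd4 and Adamts10.

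**Figure D1:**
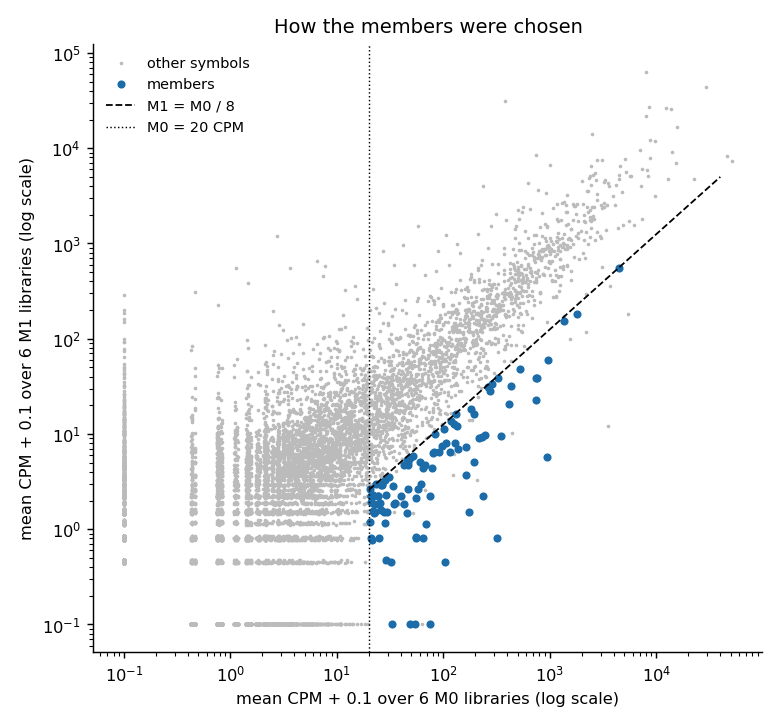
Mean CPM plus 0.1 over the 6 M0 libraries (x axis, log scale) and the 6 M1 libraries (y axis, log scale) for every symbol in the table. Blue points are the 102 members, grey points the other symbols, the dotted line marks 20 CPM in M0 and the dashed line an M1 mean of 1/8 of the M0 mean. The members spread from just under the dashed line down to the 4 that had no count in M1.

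The scale of the ratio depended on how libraries were scaled. The median M1 to M0 change of all tested genes was -0.30 on the log2 scale with CPM of raw totals, the scale of the rule, and -0.01 with TMM-scaled CPM, a shift of 1.23-fold. With TMM-scaled CPM 74 of the 102 members met the ratio, and with DESeq2 size factors 66 did. A few members carried most of the counts. Focad, Atg7, Fer1l5 and Pdcd11 made up 41.2% of the members' summed M0 CPM, and the 15 most counted members 69.1%. Counts also follow the length of a gene: per kilobase of annotated exon, Ifi27l2a had the highest M0 level, 1614 CPM per kb, against 399.0 for Focad, 376.8 for Rmdn1 and 327.4 for Vti1b, and Cdc42bpa had the lowest, 1.32 CPM per kb. The rule used means over both treatment arms, so a lower M1 level within each arm was largely set by the choice. Taking vehicle libraries alone, 91 members had at least 8 times the level in M0 and 101 at least 4 times (all but Coq10a), but with M1 means at or under the floor set to the floor 53 had at least 8 times. Taking ISRIB libraries alone, these numbers were 90 and 100 (all but Galr2 and Adamts10), and 51 against the floor.

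The 250 bases before to 50 after the transcription start, from RefSeq (build GRCm38.p6), were found for 74 of the 102 members, and 4 are shown because they hold motifs of factors that act in macrophage activation or cell division, in members described further on. Capitals mark the motif matches. Brca2 (chr5:150522371-150522670, plus strand) has a match to the interferon-stimulated response element (ISRE) and, downstream of it, one to the E2F motif. Kat5 (chr19:5610045-5610344, minus strand) has the CLEAR element of lysosomal genes and, nearer to the start, an ISRE match that overlaps a match to the cell cycle homology region (CHR). Folr2 (chr7:101857141-101857440, minus strand) has a CHR match, and Gramd4 (chr15:86057445-86057744, plus strand) an AP-1 match.
Brca2: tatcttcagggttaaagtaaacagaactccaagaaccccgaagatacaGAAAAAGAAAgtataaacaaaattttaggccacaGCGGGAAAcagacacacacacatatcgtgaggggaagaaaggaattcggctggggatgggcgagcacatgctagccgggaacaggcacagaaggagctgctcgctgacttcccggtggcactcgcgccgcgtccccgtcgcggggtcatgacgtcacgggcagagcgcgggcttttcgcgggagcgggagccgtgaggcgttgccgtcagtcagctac
Kat5: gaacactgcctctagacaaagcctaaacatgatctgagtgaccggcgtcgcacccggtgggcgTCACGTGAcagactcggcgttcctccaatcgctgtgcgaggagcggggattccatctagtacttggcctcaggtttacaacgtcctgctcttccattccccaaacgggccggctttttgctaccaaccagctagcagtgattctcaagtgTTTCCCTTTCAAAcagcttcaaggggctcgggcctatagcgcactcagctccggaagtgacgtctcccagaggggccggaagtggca
Folr2: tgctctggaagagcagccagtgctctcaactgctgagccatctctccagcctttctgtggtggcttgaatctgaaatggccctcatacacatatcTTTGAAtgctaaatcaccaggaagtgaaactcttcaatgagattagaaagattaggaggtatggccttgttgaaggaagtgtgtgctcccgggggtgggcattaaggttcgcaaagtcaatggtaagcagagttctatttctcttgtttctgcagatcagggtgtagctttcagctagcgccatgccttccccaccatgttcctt
Gramd4: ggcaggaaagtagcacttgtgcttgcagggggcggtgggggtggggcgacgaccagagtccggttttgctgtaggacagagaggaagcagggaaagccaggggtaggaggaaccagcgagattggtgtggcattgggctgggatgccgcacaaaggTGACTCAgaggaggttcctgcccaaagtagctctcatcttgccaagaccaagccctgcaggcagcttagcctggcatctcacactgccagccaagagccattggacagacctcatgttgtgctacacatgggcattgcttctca

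Of the 8 motifs searched, on both strands, CHR was matched in 13 of these promoters and each of the others in 2 or fewer. The CHR letters TTTGAA were thus in 17.6% of the 74, against 18.1% of all 27025 RefSeq promoters of that length. The ISRE was matched in 2 (2.70%, against 3.49% of all), Brca2 and Kat5. The CLEAR letters TCACGTGA were in 2 (2.70%, against 1.01%), Kat5 and Supt16. PU.1 (GAGGAAGT) was found in Pdzd7 alone (1.35%, against 3.28%), AP-1 (TGAGTCA) in Gramd4 (1.35%, against 5.17%), C/EBP (TTGCGCAA) in Gid8 (1.35%, against 0.185%) and E2F (TTTCCCGC) in Brca2 (1.35%, against 1.11%). The NF-kB motif was matched in 0 of the 74 and in 0.233% of all promoters. These are matches of letters, not measured binding.

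The members fall into 11 groups by known role, put together with the members in view. Among genes of resting macrophages, Folr2, the folate receptor of tissue-resident macrophages, gave 38, 40 and 22 counts in the vehicle M0 libraries, 14, 18 and 38 in ISRIB M0, 0, 2 and 0 in M1 with vehicle and 2, 0 and 3 in M1 with ISRIB. Igf1, a growth factor that macrophages secrete in repair, had 7 to 18 counts in the M0 and 0 to 2 in the M1 libraries. Trf, which encodes the iron carrier transferrin, had 4 to 25 counts in M0 and 0 to 2 in M1. Slc40a1, which encodes ferroportin, the exporter that returns iron from macrophages to the blood, had 15, 12 and 12 counts in vehicle M0, 4, 10 and 8 in ISRIB M0, 0 in every vehicle M1 library and 2, 0 and 0 in ISRIB M1. In all 4 of these genes no M1 library was above the floor of 3 counts, and their M0 means were low, 20.8 to 57.8 CPM, so that the ratios are imprecise. Over summed counts the rate of Folr2 was 23.4 times higher in M0 (170 against 7 counts; exact Clopper-Pearson 95% interval 11.1 to 59.1, which like those that follow covers counting error only). For Igf1 it was 20.5 times (7.72 to 77.0) and for Slc40a1 29.4 times (7.80 to 248.4), while for Trf, with 83 against 4 counts, the interval was 7.53 to 75.2. The rule chose members by this ratio, so these intervals and those that follow are no test of it. Replicate libraries varied by more than counting error, so the intervals are also too narrow.

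**Figure D2:**
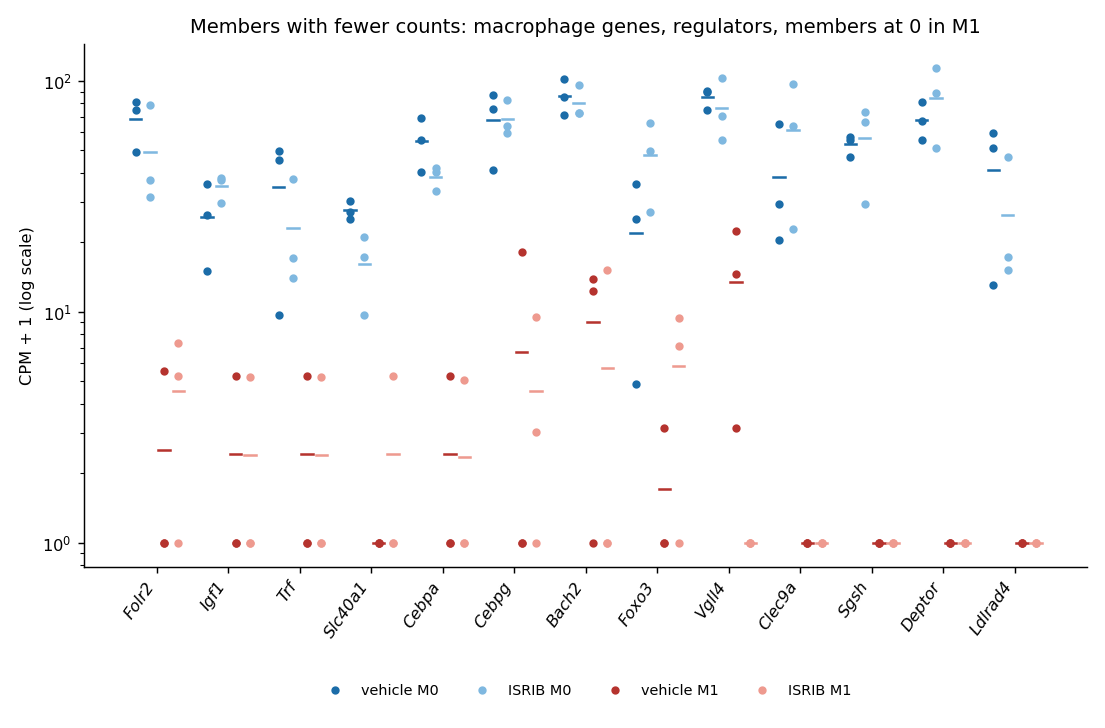
CPM plus 1 (log scale) in each of the 12 libraries for 13 members with fewer counts: the 4 resting macrophage genes, 5 regulators of transcription and the 4 members at 0 in M1. Points are libraries, short lines the mean of 3. Many M1 points lie at 1, which is 0 counts, and Cebpg, Bach2, Foxo3 and Vgll4 each keep some M1 libraries with more.

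Transcription factors and chromatin proteins made up 11 members, with M0 means of 21.1 to 82.3 CPM. Cebpa, a factor that directs the myeloid lineage, had 28, 34 and 18 counts in vehicle M0 and 18, 16 and 20 in ISRIB M0, with 2 counts in 1 vehicle M1 and in 1 ISRIB M1 library and 0 in the other M1 libraries. Cebpg, a C/EBP protein that pairs with ATF4 in the stress response, had 20 to 44 counts in M0 libraries, and 0, 0 and 8 in M1 with vehicle and 4, 1 and 0 in M1 with ISRIB. Bach2, a repressor related to the haem sensor Bach1, had 32 to 52 counts in M0, and in M1 it was at 0 in 3 libraries and at 5 to 7 in the other 3. Foxo3, a forkhead factor held in check by AKT, spread widely in M0 (2 to 32 counts), and its lowest M0 library lay within the range of M1 (0 to 4 counts). Vgll4, a cofactor that competes with YAP for TEAD factors, had 38, 44 and 41 counts in vehicle M0 and 47, 27 and 34 in ISRIB M0. In M1 Vgll4 had 1, 6 and 10 counts with vehicle and 0 in all 3 libraries with ISRIB. The other members of this group were Zfp119a, the acetyltransferase Kat5 (TIP60), the nuclear receptor coactivator Ncoa3, the chromatin remodelling subunit Arid2, the histone chaperone subunit Supt16 and Jmjd4.

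Autophagy, lysosome, vesicle and lipid transport genes were 11 members. Atg7 (GRCm38 chr6:114643097-114860614, plus strand), the activating enzyme for the ubiquitin-like proteins that build the autophagosome, gave 803, 965 and 878 counts in vehicle M0 and 752, 985 and 827 in ISRIB M0. In M1 Atg7 gave 78, 75 and 73 counts with vehicle and 70, 112 and 103 with ISRIB, so the M0 mean was 10.96 times the M1 mean with vehicle and 8.97 times with ISRIB. The M0 and M1 libraries of Atg7 lay far apart, and it stayed well above detection in M1. Vti1b, a SNARE protein of late endosome and lysosome fusion, gave 279, 293 and 349 counts in vehicle M0 and 194, 247 and 172 in ISRIB M0. In M1 Vti1b gave 34, 17 and 16 counts with vehicle and 38, 24 and 7 with ISRIB. Gramd4 had 45 to 119 counts in the 6 M0 libraries and 1 or 0 in each M1 library, a ratio of summed rates of 122.7 (95% counting interval 47.6 to 452.2). Sgsh, the lysosomal sulfamidase that degrades heparan sulfate, had 28, 28 and 21 counts in vehicle M0 and 13, 36 and 32 in ISRIB M0, and 0 in every M1 library, at least 8.40-fold lower against a floor of 3 counts per library. The rest were Slc31a2, a copper transporter of endosomes (272.7 CPM in M0 and 28.2 in M1), Star, which moves cholesterol into mitochondria (265.2 and 31.4), the oxysterol-binding protein gene Osbpl11, Tmco1, the phosphatidylglycerol remodelling gene Serac1, the peripheral myelin protein gene Pmp22 and Sec22c. The group's M0 means ran from 21.8 to 1789 CPM, and 4 of the 11 had no M1 library above the floor.

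RNA processing was represented by 4 members. Pdcd11, a ribosomal RNA processing factor, gave 353, 632 and 536 counts in vehicle M0 and 353, 470 and 484 in ISRIB M0. Its M1 counts were 28, 16 and 24 with vehicle and 24, 46 and 32 with ISRIB, so the M0 mean was 21.1 times the M1 mean with vehicle and 12.8 times with ISRIB. Ddx39, a DEAD-box helicase of mRNA splicing and export, gave 189, 233 and 220 counts in vehicle M0 and 177, 190 and 205 in ISRIB M0. Both groups of M1 libraries of Ddx39 were low, with 8, 18 and 8 counts in vehicle and 10, 6 and 7 in ISRIB. Nop9, a factor of small ribosomal subunit assembly, had means of 22.7 CPM in M0 and 1.41 in M1.

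DNA repair and cell division genes were 8 members. Cdan1, which encodes codanin-1 and is mutated in a congenital dyserythropoietic anaemia, gave 178, 249 and 249 counts in vehicle M0 and 196, 180 and 198 in ISRIB M0, against 18, 16 and 11 in M1 with vehicle and 7, 20 and 18 in M1 with ISRIB. Brca2, a tumour suppressor gene of homologous recombination, had 81 to 144 counts in M0 libraries and 0 to 12 in M1. Cdc23, a subunit of the anaphase-promoting complex, varied most among the well-counted members. It had 54, 173 and 59 counts in vehicle M0, 39, 17 and 47 in ISRIB M0, 10, 2 and 17 in M1 with vehicle and 10, 4 and 2 in M1 with ISRIB, and its lowest M0 library had fewer CPM than its highest M1 library. Others in this group were the glycosylase gene Mbd4, the nucleotide pool hydrolase gene Nudt1 and Cul9. The wider cell cycle list is given with the other lists.

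Mitochondrial and metabolic genes were 11 members, most with low counts: 7 had no M1 library above the floor. Pigb, a mannosyltransferase of GPI anchor synthesis, gave 297, 426 and 421 counts in vehicle M0 and 310, 319 and 450 in ISRIB M0, against 23, 21 and 14 in M1 with vehicle and 23, 18 and 9 in M1 with ISRIB. Nat8l, which makes N-acetylaspartate from aspartate and acetyl-CoA, had 67, 111 and 118 counts in vehicle M0 and 83, 193 and 119 in ISRIB M0. Its M1 libraries held 2, 1 and 0 counts with vehicle and 1, 2 and 0 with ISRIB, a ratio of summed rates of 111.1 (95% counting interval 50.8 to 303.7). Fam210a (133.2 CPM in M0 and 12.2 in M1) and Timm23, a channel subunit of the inner membrane protein importer (82.8 and 9.83), were next. Adhfe1, the glycerol phosphate dehydrogenase gene Gpd1, the glutathione cycle gene Oplah, the galactose pathway gene Galt, Abhd15, the cristae junction gene Minos1 and the coenzyme Q factor gene Coq10a had M0 means of 21.8 to 43.1 CPM.

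Signalling, ubiquitin and cytoskeleton genes were 13 members. Rnf150, a RING finger protein, gave 162, 153 and 148 counts in vehicle M0 and 188, 152 and 205 in ISRIB M0, and 0, 0 and 5 in M1 with vehicle and 2, 10 and 10 in M1 with ISRIB. Tubb6, a β-tubulin, gave 133, 131 and 183 counts in vehicle M0 and 158, 119 and 103 in ISRIB M0, and 12, 29 and 8 in M1 with vehicle and 14, 12 and 18 in M1 with ISRIB. Deptor, an inhibitor bound to the kinase mTOR, had 34, 40 and 25 counts in vehicle M0 and 23, 56 and 43 in ISRIB M0, and 0 in every M1 library, at least 11.8-fold lower. Ldlrad4, a negative regulator of TGF-β signalling, had 30, 6 and 23 counts in vehicle M0 and 21, 7 and 8 in ISRIB M0, and 0 in every M1 library, at least 5.12-fold lower. The M0 libraries of Ldlrad4 varied widely within each group. The others were Tpra1, the cofilin phosphatase gene Ssh1, the kinase genes Brsk1 and Cdc42bpa, the ectodysplasin receptor adaptor gene Edaradd, the ubiquitin ligase subunit gene Gid8, the decoy TRAIL receptor gene Tnfrsf22, Bcl2l12 and the deubiquitinase gene Usp40.

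Genes best known from other tissues were 18 members. In the cilia and sperm group of 6, Fer1l5, a ferlin, gave 688, 714 and 727 counts in vehicle M0 and 593, 613 and 614 in ISRIB M0. Fer1l5 remained above detection in M1, with 90, 85 and 71 counts in vehicle and 44, 77 and 67 in ISRIB. Dnah11, an axonemal dynein heavy chain, gave 151, 180 and 138 counts in vehicle M0 and 134, 148 and 205 in ISRIB M0, and 14, 15 and 35 in M1 with vehicle and 11, 17 and 17 in M1 with ISRIB. The sperm tail gene Dnajb13, the intraflagellar transport gene Cluap1, the dynein gene Dnah7c and the cilia gene Cfap100 completed this group. In the muscle, nerve, platelet and red cell group of 12, Prune2, a BCH-domain protein best known from neurons, stood out. Prune2 gave 412, 249 and 345 counts in vehicle M0 and 606, 515 and 604 in ISRIB M0, and 0, 0 and 6 in M1 with vehicle and 6, 2 and 2 in M1 with ISRIB, a ratio of means of 166.4. Bsn, the presynaptic protein bassoon, had 40, 61 and 39 counts in vehicle M0 and 59, 62 and 40 in ISRIB M0, and 1 count over the 6 M1 libraries, against 301 over M0, so the ratio of rates was 290.3 with a 95% counting interval of 51.7 to 11505. The others were the platelet glycoprotein gene Gp1ba (192.6 CPM in M0 and 5.02 in M1), the calcium channel subunit gene Cacnb4, the spectrin gene Sptb, the acetylcholine receptor subunit gene Chrnb1, the sarcoplasmic reticulum gene Srl, the sarcomere gene Myom1, Pdzd7, the endothelial chaperone gene Hspa12b, the neuropeptide gene Qrfp and the galanin receptor gene Galr2. Whether the counts of these genes come from transcripts of macrophages was not tested.

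**Figure D3:**
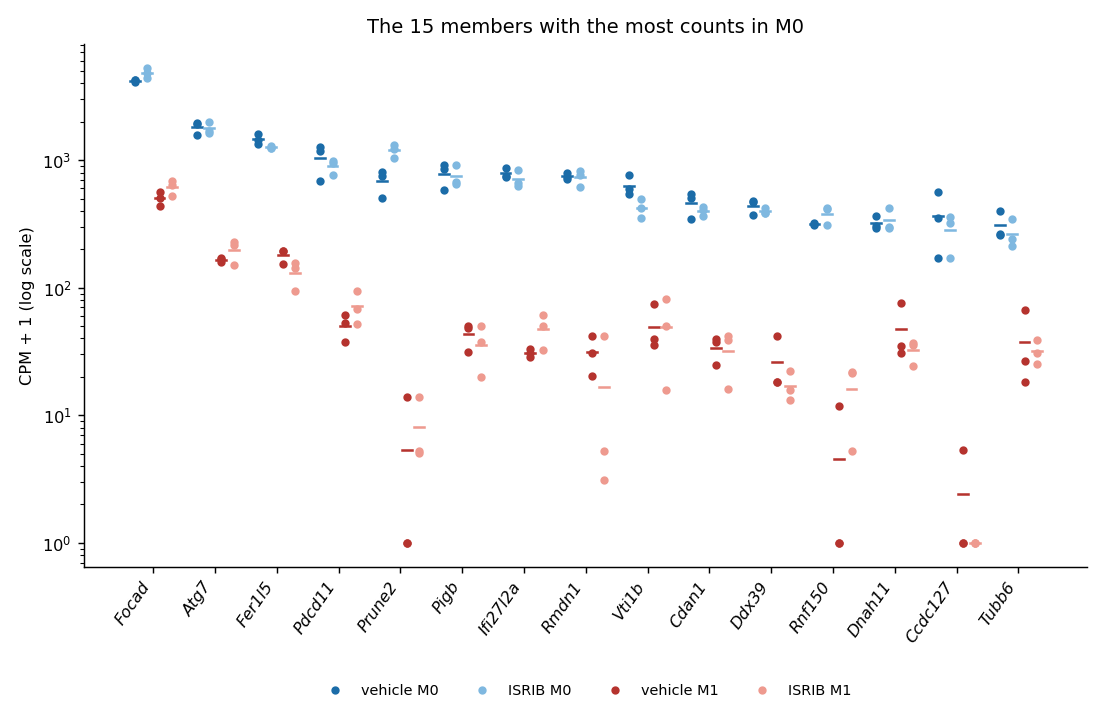
CPM plus 1 (log scale) in each of the 12 libraries for the 15 members with the highest mean CPM in M0. Points are libraries coloured by group and short lines the mean of 3. In all 15 the 6 M0 libraries lie above the 6 M1 libraries, and the ISRIB and vehicle points of M0 overlap in most.

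A pair of members are immune genes. Ifi27l2a, an interferon-inducible mitochondrial protein gene, gave 449, 365 and 344 counts in vehicle M0 and 385, 329 and 305 in ISRIB M0, and 13, 13 and 15 in M1 with vehicle and 28, 24 and 15 in M1 with ISRIB. Its neighbour Ifi27, 1927 bases away on the other strand, had the opposite order, with 2 to 10 counts in M0 and 71 to 101 in M1 libraries. Clec9a, a receptor for dead cells on cross-presenting dendritic cells, had 10, 32 and 13 counts in vehicle M0 and 10, 31 and 47 in ISRIB M0, and 0 in every M1 library, at least 7.61-fold lower.

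The remaining 20 members have no shared role, and include the most counted one. Focad (GRCm38 chr4:88094629-88411011, plus strand), which encodes focadhesin, gave 2169, 2032 and 1943 counts in vehicle M0 and 2037, 2375 and 2598 in ISRIB M0, against 236, 191 and 261 in M1 with vehicle and 244, 315 and 327 in M1 with ISRIB. Its means were 4183 ± 84.3 CPM in vehicle M0 and 500.1 ± 63.4 CPM in vehicle M1 (SD, n = 3), and 4844 ± 435 and 615.3 ± 85.3 CPM with ISRIB (SD, n = 3). Rmdn1, a microtubule-associated protein gene, gave 405, 366 and 325 counts in vehicle M0 and 377, 306 and 375 in ISRIB M0, against 14, 18 and 9 in vehicle M1. With ISRIB the M1 libraries of Rmdn1 were uneven, at 2, 20 and 1 counts. Ccdc127, a coiled-coil protein gene, had the lowest M1 share of all members with any M1 count. It gave 87, 281 and 161 counts in vehicle M0 and 78, 176 and 156 in ISRIB M0, 0, 0 and 2 in vehicle M1 and 0 in each ISRIB M1 library. Over summed counts (939 and 2) the ratio of rates was 452.9, with a 95% counting interval of 125.0 to 3745. The others were Mblac1, Eml6, Lhfpl2, Krtcap3, Fam168b, Cnpy4, AI507597, Sh2d7, Ankrd40, Zswim1, Tmem253, Ccdc125, Tmem181a, Ccdc183, Kctd12b, Adamts10 and Vsig10l, with M0 means of 20.6 to 216.1 CPM. Near-identical copies exist for some members, such as Dnah7c and Tmem181a, and how reads were shared among copies is not given in the sources used here.

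The ratio threshold fell within a continuous run of genes. Just inside it were Ccdc183 (ratio 8.15), Focad (8.09) and Usp40 (8.06), and just outside were Esco1 (7.99), Hnrnpll (7.97) and Sphk2 (7.91). Sphk2, a sphingosine kinase gene, gave 526, 782 and 623 counts in vehicle M0 and 662, 628 and 717 in ISRIB M0, and 73, 85 and 82 in M1 with vehicle and 71, 63 and 106 in M1 with ISRIB. Esco1 had 2 to 46 counts in M0 and 1 to 4 in M1 libraries, and Hnrnpll 6 to 35 and 0 to 7. Ccdc183 had 10, 13 and 19 counts in vehicle M0, 7, 6 and 13 in ISRIB M0, 1, 1 and 6 in M1 with vehicle and 0 in M1 with ISRIB, and Usp40 had 5 to 23 counts in M0 and 0 to 3 in M1. Sphk2 and Focad, on either side of the threshold, were alike in how far apart their M0 and M1 libraries lay.

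Many members lie against another gene. The libraries came from a strand-specific kit, but the strand setting used in counting is not given in the sources used here. Where exons of genes on opposite strands overlap, it is thus not known which gene the counts of a symbol came from. If counting used the setting opposite to that of the kit, the counts of a symbol would be those of reads from the other strand of its locus, and every value given here for a gene would be that of its antisense strand. Which setting was used was not tested. By GENCODE M21 annotation on GRCm38, 52 members (51.0%) shared exonic bases with a gene of the other strand, against 65.9% of tested genes and 23.6% of all symbols. Such members held 61.4% of the members' counts, where genes of this kind held 84.3% of all counts. Distances without overlap were taken only to genes of the count table. By these, a further 11 members (10.8%) ended or began within 100 bases of an opposite-strand gene, against 2.97% of tested genes. Of the 30 members within 10 kb of an opposite-strand gene of the count table without overlapping it, 22 (73.3%) faced it tail to tail, against 65.3% of tested genes so placed. The pair Atg7 and Vgll4 ended 13 bases apart, tail to tail, and both were members.

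For 41 of the 52 members the overlapping gene was itself in the count table, in 46 pairs. In 33 pairs the other gene had fewer M0 counts than the member, and in 18 it had under 3 CPM in M0. Hacd4, which shares 746 exonic bases with Focad, had 0 to 4 counts in each library against 1943 or more for Focad in M0. Lman2l opposite Fer1l5, Calhm2 opposite Pdcd11 and 2310009A05Rik opposite Pigb likewise had 0 to 4 counts in every library, and Cdca7l opposite Dnah11 had counts in 1 library (10 counts). In 19 pairs the other gene had at least 20 CPM in M0, and in 9 of these it differed by less than 2-fold between M0 and M1 while the member was at least 8-fold lower.

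Ccpg1 opposite Pigb, with 2170 shared exonic bases, gave 378, 360 and 432 counts in vehicle M0, 310, 363 and 325 in ISRIB M0, 169, 138 and 169 in M1 with vehicle and 188, 256 and 247 in M1 with ISRIB, a ratio of 1.81. The member Pigb had as many counts as Ccpg1 in M0 and far fewer in M1. Arg2 opposite Vti1b had 28 to 50 counts in M0 and 16 to 35 in M1 libraries, and Kif20a opposite Cdc23 had 193 to 297 and 157 to 185. Adgre5 opposite Ddx39 had 9 to 35 counts in M0 and 18 to 33 in M1, so that it was no lower in M1. The other pairs of this kind were Eml6 with Rtn4, Supt16 with Rpgrip1, Bcl2l12 with Gm15545, Tmem181a with Dynlt1a and Nop9 with Cideb.

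In 5 pairs both genes were at least 8-fold lower in M1. Card14 opposite Sgsh, with 955 shared exonic bases, gave 2446, 2680 and 2491 counts in vehicle M0, 2567, 3038 and 2711 in ISRIB M0, 75, 59 and 118 in M1 with vehicle and 91, 86 and 85 in M1 with ISRIB. In M0 Card14 averaged 5474 CPM and Sgsh 53.8 CPM, so most counts of this pair were assigned to Card14. Gm9920 opposite Deptor had 51 to 113 counts in M0 and 0 to 4 in M1, and Bach2os opposite Bach2 25 to 39 and 0 to 6. Fam210a and Ldlrad4, which share 2798 exonic bases, were both members and count as a pair from either side. In the other 5 pairs the partner was 2-fold to 8-fold lower: Lrrc14b opposite Ccdc127 had 250 to 304 counts in M0 and 47 to 85 in M1, and the others were Synj2 with Serac1, Smpd5 with Oplah, Trp53i13 with Abhd15 and Dgkd with Usp40. For Ccdc127 the partner had more counts than the member in every library but 1, so its counts in M1 were at most 2 where Lrrc14b had at least 47.

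**Figure D4:**
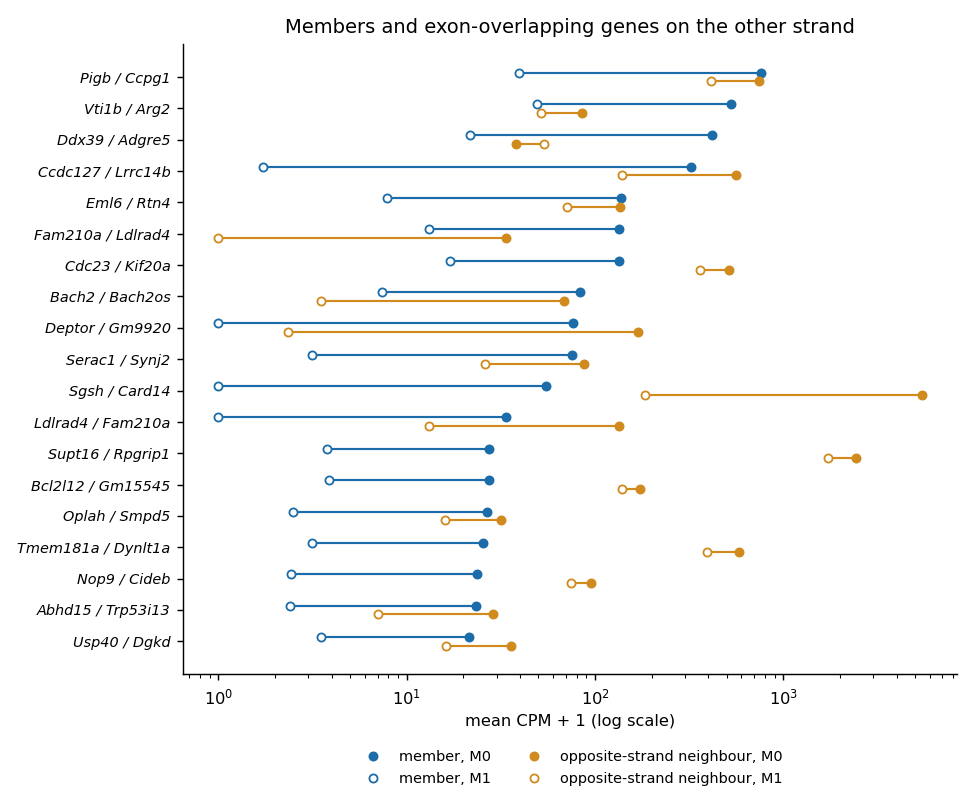
Mean CPM plus 1 (x axis, log scale) in M0 (filled) and M1 (open) for the 19 pairs of a member (blue) and an exon-overlapping gene on the other strand (orange) with at least 20 CPM in M0. Adding 1 shortens the lines of low genes, so blue lines span a little under 8-fold for members such as Usp40. The orange lines are short in 9 pairs, such as Pigb with Ccpg1, and long in 5, such as Sgsh with Card14.

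No member was called different between ISRIB and vehicle, though in M1 most members had too few counts for a call to be likely. Of the 102 members 100 passed the filter on low counts (Adamts10 and Usp40 did not), and the quasi-likelihood test of edgeR, adjusted by Benjamini-Hochberg over 2356 genes, called 0 members between ISRIB and vehicle in M0, in M1, over both states, or in the interaction of ISRIB with polarization. Of all genes 0.0% were called in each of the 4 comparisons. Most members passed the filter only through their M0 counts, and with the M1 libraries alone 13 were tested. The calls of 0 in comparisons that involve M1 are thus not read as results about the members. At an unadjusted p under 0.05, edgeR gave 5 members in M0 (background 6.07%), 16 in M1 (background 5.69%), 14 over both states (background 6.2%) and 12 in the interaction (background 7.09%). The DESeq2 Wald test, limma-voom and limma on the deposited log2 values also called 0 members in each. The shares of all genes that these methods called are not given here. The median log2 fold change of tested members was -0.04 in M0 (0.00 for all genes), -0.14 in M1 (-0.00), -0.12 over both states (0.01) and -0.20 for the interaction (-0.02). Medians that involve M1 include fits of groups at 0 counts, such as those of Deptor, and are not read as a shift of the members.

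In M0, 45 members had a mean of only 20 to 50 CPM. The median standard error of ISRIB against vehicle over the tested members was 0.60 on the log2 scale. Of the 37 members with at least 100 CPM in M0, 36 had a fitted difference between ISRIB and vehicle within 2-fold. The exception was Cdc23, and the median standard error of the 37 was 0.30. A fitted value within 2-fold does not exclude a larger difference, which the standard errors of Prune2 and Tpra1 allow. Prune2 was higher in all 3 ISRIB M0 libraries than in any vehicle M0 library, at 1197 ± 143 against 685.2 ± 162 CPM (SD, n = 3). Its log2 fold change was 0.80 ± 0.23 (SE), and the adjusted p by edgeR was 0.294. Without a filter on low counts, which took the number of genes tested to 10978, the same edgeR test gave Prune2 an adjusted p of 0.0254. It was the one setting tried in which a member was called in M0. The share of all genes called in that setting is not given here, so whether the call is particular to Prune2 was not tested. Cdc23 differed by -1.41 ± 0.51 (SE), edgeR adjusted p 0.551, with the library of 173 counts in the vehicle group, and by -0.71 when that library (vehicle M0 replicate 2) was left out. Tpra1, a membrane protein gene, had 69, 84 and 99 counts in vehicle M0 and 130, 160 and 128 in ISRIB M0, so that the log2 fold change was 0.74 ± 0.30 (SE), edgeR adjusted p 0.595. The other members with an unadjusted p under 0.05 were Ccdc125 (1.82) and Vti1b (-0.57 on the log2 scale).

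By library, 7 members had all 3 ISRIB M0 libraries above all 3 vehicle M0 libraries (Brsk1, Cacnb4, Ccdc125, Focad, Mblac1, Prune2 and Tpra1; background 5.26%). In 9 members all 3 were below (Adamts10, Cdc23, Fer1l5, Pmp22, Serac1, Slc40a1, Star, Tmem253 and Vti1b; background 6.11%). In M1 the same held for 3 members above (Ankrd40, Mbd4 and Tmco1; background 5.56%) and 6 below (among them Ccdc183, Chrnb1, Dnajb13, Gramd4 and Vgll4; background 6.03%). The filter on low counts used all 12 libraries, so most members passed it only through their M0 counts. The 16 members with an unadjusted p under 0.05 by edgeR in M1 were 16.0% of the 100 tested, more than the background share. Shares that involve M1 are, because of that filter, not read as results about the members. These 16 included Focad (log2 fold change 0.28) and Fer1l5 (-0.48), which were well counted in M1, while the 3 with the lowest p rested on few counts. Vgll4, with counts of 1, 6 and 10 against 0, 0 and 0, had the lowest p in M1 and an edgeR adjusted p of 0.319. Tmco1, a calcium channel protein of the endoplasmic reticulum, had 0, 2 and 2 counts in M1 with vehicle and 7, 6 and 22 in M1 with ISRIB, with similar M0 counts (73, 54 and 58 in vehicle, 48, 46 and 65 in ISRIB), and its edgeR adjusted p was 0.319. Ankrd40 had 0 counts in all vehicle M1 libraries and 3, 7 and 6 in ISRIB M1, with 31, 20 and 15 counts in vehicle M0 and 31, 11 and 34 in ISRIB M0, and an edgeR adjusted p of 0.372. The same 3 genes had the lowest p in the interaction, where edgeR gave adjusted p-values of 0.211, 0.211 and 0.309, and over both states (0.314 for Vgll4, 0.582 for Tmco1 and 0.396 for Ankrd40). When only the M1 libraries were fitted, 1770 genes were tested, and 13 members were counted well enough to be among them. For these 13, edgeR gave 0 an unadjusted p under 0.05 and 0 an adjusted one. With so few members, and the share of all genes not given here, this is not read as a result about the members. Rmdn1, with its uneven ISRIB M1 libraries, was called lower with ISRIB (log2 fold change -3.13, edgeR adjusted p 0.0462) only when the ISRIB M1 library of 20 counts was left out.

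**Figure D5:**
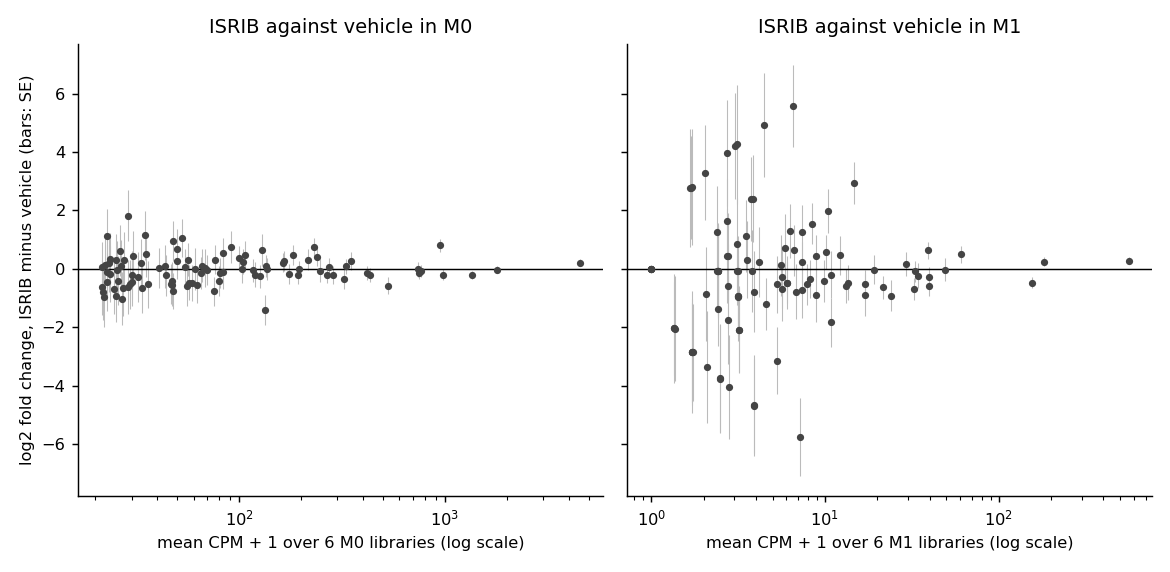
Log2 fold change of ISRIB over vehicle from edgeR (y axis, bars are standard errors) against the mean CPM plus 1 of the same 6 libraries (x axis, log scale) for the 100 tested members, in M0 (left) and M1 (right). Differences in M0 are small at high counts, while in M1 most members have under 10 CPM and fitted values of groups at 0 depend on the prior count.

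Lists of related genes, chosen with earlier results of these data known, show the setting. edgeR's quasi-likelihood test at an adjusted p under 0.05 called 24.3% of tested genes higher and 20.5% lower in vehicle M1 than in vehicle M0, and 23.9% and 20.9% with ISRIB. Of 11 tested macrophage identity genes 3 rose (Adgre1, Itgam and Fcgr1) and 2 fell (Lyz2 and Csf1r) with vehicle. Of 7 tested scavenger and endocytic receptor genes, Marco and Lrp1 rose and Cd163 and Stab1 fell with vehicle. Of 4 tested transcription factor genes that were not members, Zeb2 rose and 0 fell. These calls use TMM scaling. In CPM of raw totals, the scale of the rule, Zeb2 averaged 2642 in vehicle M0 and 2805 in vehicle M1, and 2898 and 2882 with ISRIB. Only 4 of 34 cell cycle genes were tested, and Ccnd1 rose while Aurka fell. The single tested gene of the alternative activation list, Tgm2, rose with vehicle. Of 12 tested M1 control genes 11 rose and 0 fell in either arm. Of 3 tested stress response genes that were not members, Atf3 rose with vehicle. With ISRIB the numbers higher and lower were 3 and 1 for identity, 3 and 2 for scavenger receptors, 1 and 0 for transcription factors, 1 and 1 for cell cycle, and 0 and 0 for alternative activation and for stress response.

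Markers of other cells had low counts or none. Such counts do not show that a cell type was absent, as the macrophage genes Mertk, C1qa, Aif1 and Spi1 were also too low to test. No neutrophil, T and NK cell, B cell, mast cell, fibroblast or erythroid marker was counted highly enough to be tested, and their summed counts were at most 8, 4, 4, 2, 13 and 4 in any library. The dendritic cell list, to which the member Clec9a belongs, was an exception. Its summed counts were 27 to 66 in M0 and 330 to 454 in M1 libraries, of which Xcr1 gave 6 to 19 in M0 and 325 to 434 in M1. Clec9a, like Xcr1 a marker of cross-presenting dendritic cells, was at 0 in M1, while Xcr1 rose in both arms. Flt3, Zbtb46 and Cd209a, which define dendritic cells, were at 0 in every library. The part of dendritic cells in the low M1 counts of Clec9a was not tested. In libraries of whole cultures, fewer cells of a type and less RNA per cell cannot be told apart.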

How the data were processed

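RNA of 12 libraries (4 groups, 3 replicates each) was sequenced from strand-specific mRNA libraries, per the labels. The authors deposited raw counts per gene symbol, whole numbers with no scaling, and log2 values, which by their values are counts scaled by 1 factor per library, with 1 added before the logarithm. The submitters' processing notes name FastQC, HTSeq, DESeq2 and mm10 without roles. The aligner, the annotation and the strand setting of counting are not given in the sources used here. Of all counts above 0, 61.3% were even numbers, with 12645 counts of 2 and 6991 counts of 1. Whether both reads of a pair were counted separately is not given. If they were, a floor of 3 counts would stand for fewer fragments and the counting intervals would be too narrow for that reason also.

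Members and gene lists were chosen with earlier results of these data known. CPM is the count divided by the library total, times 1000000, and errors are SD over 3 libraries. In R 4.3.3, edgeR 4.0.16 kept genes by filterByExpr (minimum count 10, minimum total 15), scaled libraries by TMM and fitted a mean per group to all 12 libraries. glmQLFTest gave each contrast, with Benjamini-Hochberg adjustment over 2356 genes and a threshold of 0.05. Standard errors are those implied by the test statistic. The fit was tested on simulated data.

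Alternatives were DESeq2 1.42.0 (Wald test and size factors), limma 3.58.1 (voom, and on the deposited log2 values), upper-quartile scaling, other filters and samples, a replicate block, and other thresholds of the rule. Positions and overlaps come from GENCODE M21 (GRCm38, the build of the notes) and promoters from RefSeq. All 102 members enter the counts, and all but 3, which are not reported here, are named. Counts in each library are given for the 15 members with the most M0 CPM, those with the lowest M1 to M0 ratio, the 3 with the lowest p in each ISRIB contrast, those beside the ratio threshold, and opposite-strand genes of these. Role examples beyond these were chosen after their values were seen. No 2 libraries were identical.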

Additional observations from a re-analysis of the deposited data

How the results depend on the processing

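The members called between ISRIB and vehicle stayed at 0 in M0, over both states and in the interaction under every alternative tried, except that 1 member (Prune2, log2 fold change 0.79) was called in M0 without a filter on low counts. In M1 they stayed at 0 except without ISRIB M1 replicate 2, where 1 (Rmdn1) was called, so leaving out each library gave 0 to 1. The shares of all genes called in the settings that called Prune2 and Rmdn1 are not given here. The number of members depended on the rule: with DESeq2 size factors 66 of the 102 remained, an M1 limit of 1/4 gave 240, a limit of 1/16 gave 51, an M0 minimum of 50 CPM gave 57 and one of 10 CPM gave 165. Leaving out each library gave 97 to 113 members. Genes of the fixed lists called between M1 and M0 numbered 25 with vehicle and 23 with ISRIB, and 5 and 4 with a minimum mean of 50 counts, where 7 in place of 42 were tested. Leaving out each library gave 21 to 26 and 19 to 24. Same-numbered libraries of the groups compared deviated together weakly at most (correlations of -0.060 to 0.113), though 8 of 12 were best with their own number. The main fit did not take the numbers as pairs, and a pairing by number is not excluded. With the replicate block 0 members were called in each of the 4 contrasts, and their median log2 fold changes were -0.06 in M0, -0.24 in M1, -0.15 over both states and -0.21 for the interaction. Depth limits the M1 comparisons: the typical member had under 3 counts in a library, so differences between ISRIB and vehicle there were mostly not detectable. The cause of the changes in Prune2 and Rmdn1 was not tested.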
